A study of Homo sapiens with 6 samples.

Results

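Genes with a ZNF symbol encode proteins that carry zinc fingers, in most cases of the C2H2 type, in which 2 cysteines and 2 histidines hold a zinc ion. The genes described here are the ZNF genes with a well-measured transcript, chosen by their level: symbols of ZNF, a number and at most 1 further letter whose normalized count averaged at least 500 over the 6 libraries. There were 168 such genes among 471 ZNF symbols and 15651 genes in the table. The level, not the change with treatment, chose them, but the average includes both groups. The values are gene counts from RNA sequencing of MDA-MB-231, an established human triple-negative breast cancer (TNBC) cell line, after the authors divided them by a size factor for each library. In the DMSO group, 3 libraries came from cells given the vehicle DMSO. In the BRL-50481 group, 3 libraries came from cells given BRL-50481, an inhibitor of the cAMP-degrading phosphodiesterase PDE7A, at 50 μM for 72 h according to the Methods and the treatment text of the labels, whereas the treatment tag reads 5 μM and 48 h. The comparison addressed how the transcriptome of these TNBC cells changed with PDE7A inhibition. All 6 libraries are of 1 cell line without a further genetic change named in the labels, and the series design calls the libraries of a group biological replicates.

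C2H2 zinc finger proteins form the largest class of transcription factors in human cells, and each finger usually reads a few bases of DNA. Many of them begin with a KRAB box, which recruits the corepressor TRIM28 (KAP1). TRIM28 in turn brings the histone methyltransferase SETDB1, HP1 proteins and the NuRD complex, and this axis is best known for silencing retroelements. Others carry a SCAN domain, which pairs them with each other, or have fingers that bind RNA or proteins. Genes of KRAB zinc finger proteins lie in large clusters, above all on chromosome 19.

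The fingers of 2 members whose levels moved apart show what these proteins share. ZNF143 activates the promoters of many housekeeping and small nuclear RNA genes, and ZNF76 is its closest relative, with 345 of 546 aligned residues (63.2%) identical. The coding bases of their first finger are given 5′ to 3′ from the canonical GENCODE transcripts on hg38, with the codons of the zinc-binding cysteines and histidines in capitals. The ZNF143 gene lies on the plus strand at chr11:9460319-9528524, and the stretch encodes residues 239 to 261 of 638. For ZNF76, on the plus strand at chr6:35258909-35295985, the stretch encodes residues 167 to 189 of 570.
ZNF143: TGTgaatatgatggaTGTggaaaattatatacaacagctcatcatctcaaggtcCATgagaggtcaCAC
ZNF76: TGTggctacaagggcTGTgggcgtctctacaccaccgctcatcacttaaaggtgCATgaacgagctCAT

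The DMSO and BRL-50481 libraries held 30750573 to 33446984 reads on genes. Replicates differed by more than counting error, and DMSO replicate 1 stood apart from the other DMSO libraries. In it the median member lay 0.077 above its mean over all 6 libraries on the log2 scale. There, 56 of the 168 members had their highest value of all 6 libraries. Markers of the line were high (mean normalized count 73247 for VIM and 37483 for CD44) and the progesterone receptor gene PGR was near 0 (0 to 7.75), whereas ERBB2 averaged 1795, EPCAM 723 and the endothelial marker PECAM1 428. ESR1 and PTPRC were looked for and were not among the genes in the table.

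Of the 168 members, 164 are annotated as protein coding and 4 as pseudogenes. Their mean normalized counts ran from 503 to 8872 with a median of 812. By a pattern for the cysteine and histidine spacing, the coding members had a median of 9.5 fingers, from 0 in 5 genes to 36 in ZNF142, and 73 of the 164 held a pattern of the KRAB box. On chromosome 19 lay 59 members (35.1%), against 6.99% of all genes tested, followed by 15 on chromosome 7. Member transcripts had a median length of 4448 bases and a GC content of 43.2%, against 3167 bases and 48.5% over all genes tested.

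The most abundant members covered both directions of change. In these bulk libraries, fewer cells that carry a transcript and less of it per cell cannot be told apart. ZNF146, a protein built of fingers with no effector domain, had the highest level and fell with BRL-50481. It had 10514, 9814 and 10149 normalized counts in DMSO and 7842, 7499 and 7413 in BRL-50481, so that the groups did not overlap (log2 fold change −0.42, SE 0.047, adjusted p = 5.99e-06 in limma). ZNF664 fell as well, from 7434, 6763 and 7615 to 5624, 5423 and 5453 (log2 fold change −0.40, adjusted p = 2.60e-05 in limma), and some of its exon sequence is shared with another annotated gene. ZNF217, a CtBP-recruiting factor encoded in a region often amplified in breast cancer, rose from 5689, 4592 and 4831 to 6519, 6234 and 6280 (log2 fold change 0.34, adjusted p = 0.000891). ZNF24, a SCAN domain factor, rose from 3589, 2832 and 3168 to 4419, 4326 and 4250 (log2 fold change 0.45, adjusted p = 0.000149). In both genes that rose, DMSO replicate 1 was the highest of the DMSO libraries and still lay below every BRL-50481 library.

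ZNF106, an RNA-binding factor and the remaining member of the 5 with the highest mean, did not pass the threshold. Its counts were 4784, 3455 and 3604 in DMSO and 3697, 3659 and 3707 in BRL-50481, so the groups overlapped through DMSO replicate 1 alone. The log2 fold change was −0.083 (adjusted p = 0.468) and took values from −0.17 to 0.064 when single libraries were left out. Per 1000 bases of transcript, the order of the levels was led by ZNF146 (2651 normalized counts per kb), ZNF664 (1481), ZNF330 (1405), ZNF622 (1243) and ZNF706 (1077), with a median of 199 over the members and 42.7 for ZNF445 at the bottom. ZNF330 and ZNF706 are named here after their values were seen.

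BRL-50481 moved well-expressed ZNF genes in both directions. Of the 168 members, 50 were higher (29.8%) and 59 lower (35.1%) at an adjusted p under 0.05, and 59 did not pass. The background was high: 28.9% of all 15246 genes tested were higher and 29.8% lower, and of the 8664 genes tested with a mean of at least 500, 29.2% were higher and 39.7% lower. In this main fit, the members' shares were near those of genes in general and of genes at their level. Without DMSO replicate 1, which stood apart, 60 members were higher and 60 lower, but no share over all genes is given for that fit. A correction for transcript length and GC content changed the balance to 41 higher and 84 lower of the 168 members. Of the genes tested with that correction, 28.4% were higher and 37.2% lower, so the share of lower members was then above that of genes in general. That difference was not tested, and no corrected share is given for genes at the members' level. The groups did not overlap in 119 members (70.8%), against 64.2% of all genes tested and 73.1% of those with a mean of at least 500.

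Most changes were small. The median log2 fold change of the members was −0.014, against 0.015 over all genes tested and −0.053 over those with a mean of at least 500, and it took a positive sign under quantile normalization (0.022), median centring (0.016) and without DMSO replicate 1 (0.015). Values ran from −1.54 to 0.95 and the middle 50% of the members lay between −0.28 and 0.24. There were 82 members within 0.25 of no change, 14 above 0.5 and 15 below −0.5. A log2 fold change beyond 1 was seen for 0 members that rose and for 2 that fell. Among the 300 ZNF genes tested below the mean of 500, 70 were higher (23.3%) and 66 lower (22%), with a median of 0.025. Both shares lay below the 28.9% higher and 29.8% lower of all genes tested. No share is given for all genes below that mean, so a comparison at the same level was not made.

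**Figure D1:**
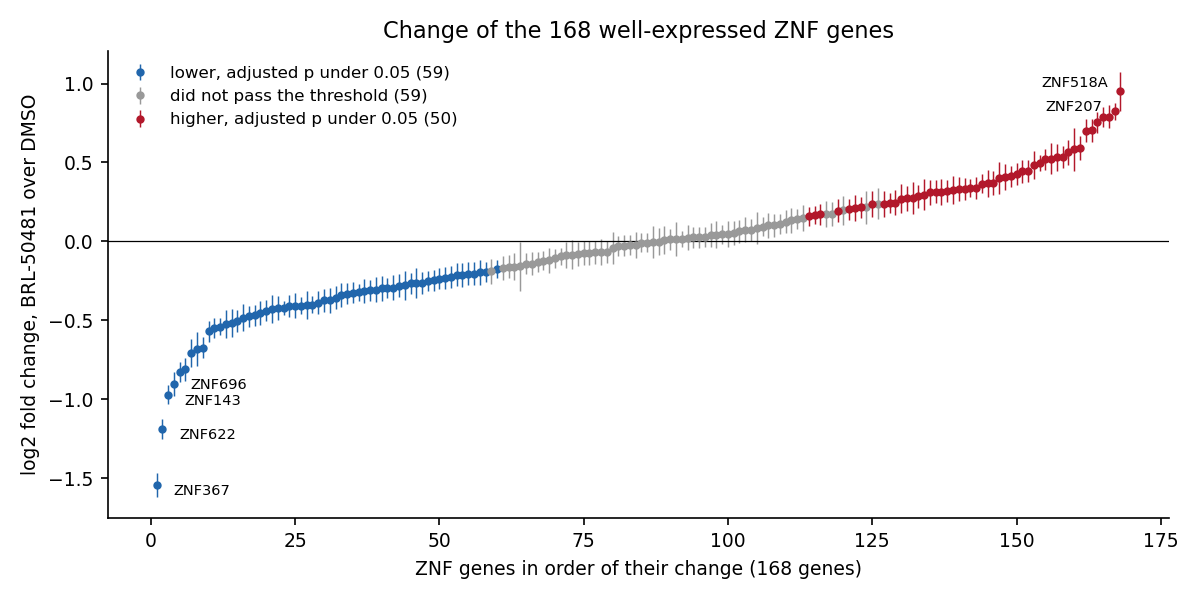
Log2 fold change (BRL-50481 over DMSO, y axis) of the 168 ZNF genes in order of their change (x axis), with bars for 1 standard error from limma and colours for genes that were higher, lower or did not pass an adjusted p under 0.05. The 59 lower genes reach −1.54 at ZNF367, the 50 higher genes reach 0.95 at ZNF518A, and the 59 others lie within 0.24 of no change.

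The 8 largest falls included genes known from ribosome assembly, promoter activation and histone mRNA processing. ZNF367, whose transcript is known to vary with the cell cycle, fell most. It had 1818, 1668 and 1619 normalized counts in DMSO and 630, 551 and 570 in BRL-50481, which is 0.343 of the DMSO level (log2 fold change −1.54, SE 0.073, adjusted p = 4.24e-09). ZNF622, a factor that acts late in the maturation of the large ribosomal subunit, fell from 2715, 3091 and 3045 to 1317, 1236 and 1331 (log2 fold change −1.19, SE 0.063, adjusted p = 1.16e-08). Both stayed below −1 whichever library was left out, with ranges of −1.60 to −1.49 and −1.25 to −1.15.

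ZNF143 went from 1643, 1701 and 1621 to 801, 849 and 884 normalized counts, or 0.510 of the DMSO level (log2 fold change −0.97, SE 0.062, adjusted p = 5.38e-08). ZNF696 went from 896, 839 and 881 to 459, 437 and 500 (log2 fold change −0.91, adjusted p = 5.21e-07). The lowest DMSO library of either gene was well above its highest BRL-50481 library. ZNF473, a protein of the U7 small nuclear ribonucleoprotein that trims histone pre-mRNA, went from 1708, 1610 and 1527 to 880, 949 and 902 (log2 fold change −0.83, adjusted p = 2.80e-07). ZNF768, which binds copies of an old repeat element, went from 1090, 1261 and 1193 to 637, 690 and 690 (log2 fold change −0.81, adjusted p = 9.72e-07) and shares exon sequence with another gene.

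ZNF394 and ZNF593 complete the 8 largest falls. ZNF394, a SCAN domain protein, had 597, 714 and 660 normalized counts in DMSO and 385, 435 and 388 in BRL-50481 (log2 fold change −0.70, adjusted p = 1.80e-05). ZNF593, known from the assembly of the large ribosomal subunit, had 545, 678 and 771 in DMSO, the widest relative spread among these 8 genes, and 412, 395 and 425 in BRL-50481 (log2 fold change −0.68, adjusted p = 0.000144). Leaving out single libraries gave −0.82 to −0.57 for ZNF593, and the groups did not overlap.

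**Figure D2:**
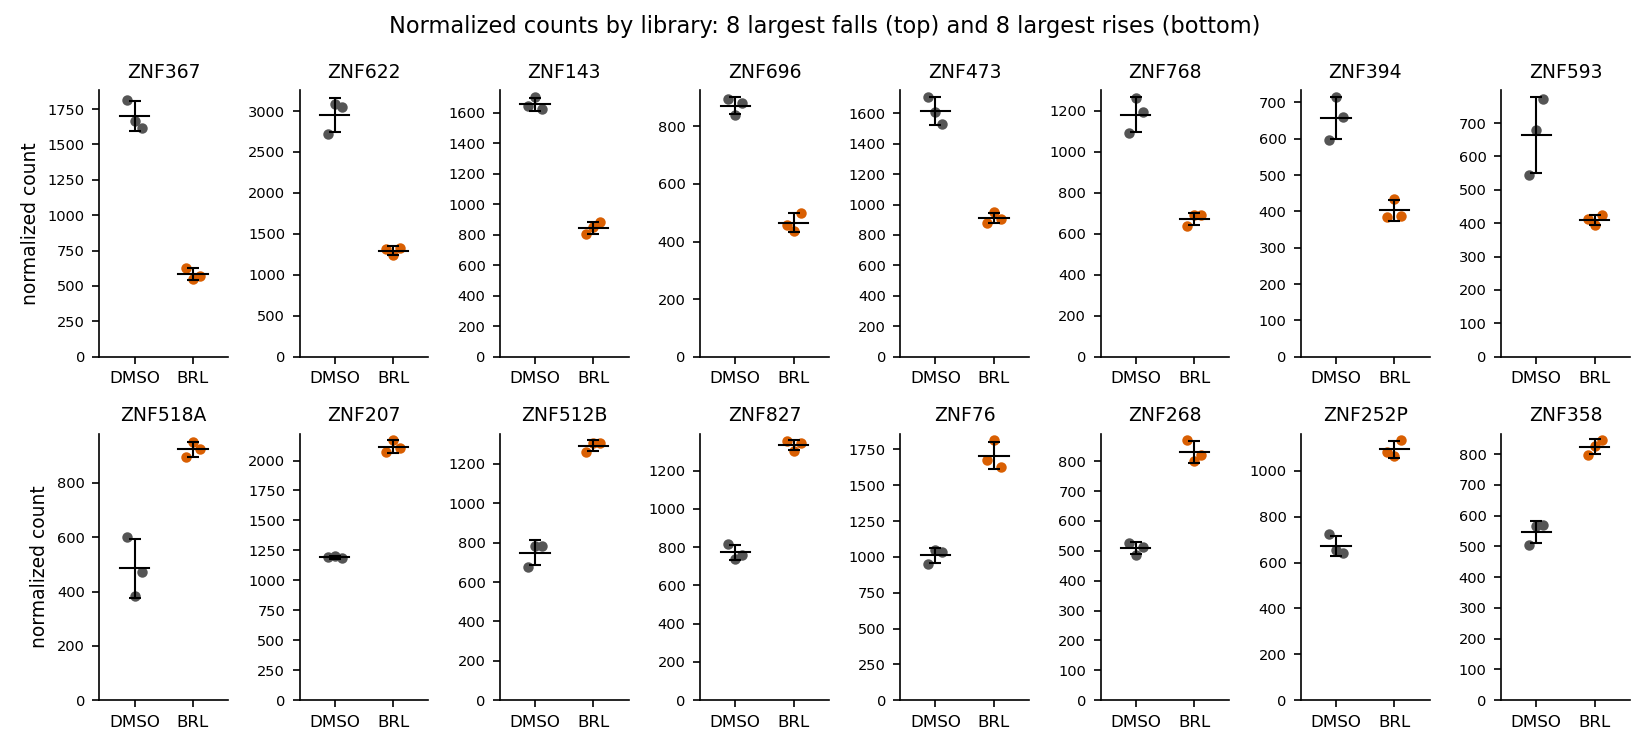
Normalized count (y axis, from 0) in each of the 3 DMSO and 3 BRL-50481 libraries (points), with the mean and SD of each group, for the 8 ZNF genes with the largest falls (top row) and the 8 with the largest rises (bottom row). In all 16 genes the points of the 2 groups do not overlap, and relative to the mean the DMSO values spread most for ZNF593 and ZNF518A.

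The 8 largest rises were in genes with different known roles. ZNF518A, a relative of a protein that binds the H3K9 methyltransferase G9a, rose most. It had 600, 384 and 473 normalized counts in DMSO and 896, 951 and 925 in BRL-50481, or 1.90 times the DMSO level (log2 fold change 0.95, SE 0.124, adjusted p = 2.34e-05). The DMSO libraries of this gene spread widely, and the value lay between 0.79 and 1.11 when single libraries were left out. ZNF207 (BuGZ), which loads the checkpoint protein BUB3 onto kinetochores, rose from 1192, 1205 and 1183 to 2068, 2172 and 2105 (log2 fold change 0.83, SE 0.055, adjusted p = 6.85e-08), and shares exon sequence with another gene.

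ZNF512B rose from 677, 786 and 784 to 1259, 1308 and 1308 normalized counts (log2 fold change 0.79, adjusted p = 1.10e-06). ZNF827, which recruits the NuRD complex, rose from 818, 741 and 761 to 1354, 1305 and 1344 (log2 fold change 0.79, adjusted p = 4.06e-07). Each of these genes was tightly grouped within the BRL-50481 libraries. ZNF76, the relative of ZNF143, rose from 954, 1046 and 1036 to 1679, 1815 and 1629 (log2 fold change 0.75, SE 0.066, adjusted p = 6.90e-07), so that these 2 paralogs passed the threshold in opposite directions. Their transcripts are of like length (2900 bases for ZNF143 and 2653 for ZNF76). Per kb, as in counts, ZNF143 was the higher of the pair in every DMSO library and ZNF76 in every BRL-50481 library.

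ZNF268, a KRAB protein with 24 fingers, had 527, 487 and 514 normalized counts in DMSO and 872, 801 and 820 in BRL-50481 (log2 fold change 0.71, adjusted p = 2.95e-06). The pseudogene ZNF252P had 722, 656 and 639 in DMSO and 1082, 1065 and 1135 in BRL-50481 (log2 fold change 0.70, adjusted p = 2.39e-06). ZNF358 had 506, 565 and 571 in DMSO and 798, 828 and 846 in BRL-50481 (log2 fold change 0.59, adjusted p = 1.76e-05). All of these share exon sequence with another gene on the same strand in GENCODE, which is not the annotation used for counting. How reads on the shared sequence were counted was not tested. Of the other pseudogenes, ZNF702P was higher (log2 fold change 0.33), ZNF788 lower (−0.47), and ZNF271P did not pass (−0.11, adjusted p = 0.155).

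Other related members were named after their values were seen. ZNF518B, the G9a-binding relative of ZNF518A, was higher (log2 fold change 0.32, adjusted p = 0.00633), as was ZNF512, the relative of ZNF512B (0.41, adjusted p = 0.000152). ZNF608 was higher (0.56, adjusted p = 4.05e-05) while its paralog ZNF609 did not pass (0.026, adjusted p = 0.760). The difference between ZNF608 and ZNF609 was not tested.

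Proteins that act on RNA, splicing and the ribosome were split. Of the 9 members listed for these roles, 3 were higher and 4 lower (33.3% and 44.4%), near the 29.2% and 39.7% of genes at their level. Beside ZNF622 and ZNF593, ZNF326, a subunit of the DBIRD complex that links RNA polymerase II to splicing, fell from 1444, 1311 and 1405 to 872, 911 and 827 normalized counts (log2 fold change −0.67, adjusted p = 2.10e-06). ZNF830, a spliceosome-associated protein, fell from 586, 622 and 641 to 480, 405 and 440 (log2 fold change −0.48, adjusted p = 0.000284). Those 4 genes had no overlap between the groups. Beside ZNF207, ZNF638, a nuclear protein that binds RNA and DNA, rose from 2697, 2328 and 2495 to 3219, 3158 and 3299 (log2 fold change 0.37, adjusted p = 0.000155).

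ZNF598, the ubiquitin ligase that marks collided ribosomes, was close to the threshold. It had 1509, 1745 and 1703 normalized counts in DMSO and 1867, 1764 and 1944 in BRL-50481 (log2 fold change 0.17, adjusted p = 0.0424). The call was lost without DMSO replicate 1 (0.11, adjusted p = 0.0734), DMSO replicate 3 (0.19, adjusted p = 0.0584), BRL-50481 replicate 1 (0.17, adjusted p = 0.113) or BRL-50481 replicate 3 (0.14, adjusted p = 0.174). ZNF346, which binds double-stranded RNA, and ZNF106 did not pass (−0.080 with an adjusted p of 0.405 for ZNF346).

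Among 6 members known to activate promoters, 2 were higher and 3 lower (33.3% and 50.0%). Of genes with a mean of at least 500, 29.2% were higher and 39.7% lower, and the difference was not tested. Beside ZNF143, ZNF384 fell from 1557, 1775 and 1582 to 1294, 1331 and 1373 normalized counts (log2 fold change −0.30, adjusted p = 0.00158). ZNF281, a factor of pluripotency and epithelial-mesenchymal transition genes, had 2847, 2445 and 2615 in DMSO and 2338, 2223 and 2351 in BRL-50481 (log2 fold change −0.19, adjusted p = 0.0170), and the call was lost without BRL-50481 replicate 2 (−0.17, adjusted p = 0.0819), under quantile normalization (−0.13, adjusted p = 0.0808) and in limma without a trend (adjusted p = 0.0672). Beside ZNF76, ZNF410, whose known target is the NuRD gene CHD4, rose from 1478, 1660 and 1494 to 1758, 1830 and 1886 (log2 fold change 0.24, adjusted p = 0.00477). ZNF148, which shares its DNA motif with ZNF281, did not pass (0.11, adjusted p = 0.157), but did without DMSO replicate 1 (0.15, adjusted p = 0.00969).

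Of 11 members that work in corepressor and chromatin complexes, 5 were higher (45.5%), 1 was lower (9.09%) and 5 did not pass, and the median log2 fold change was 0.12. Their median transcript length was 6556 bases, and genes over 5446 bases with a mean of at least 500 were 43.1% higher and 23.7% lower. The share of higher members was near that of these long genes, and the share of lower ones was below it. Some of the 11, such as ZNF335 (4454 bases), are shorter, and the difference was not tested. Beside ZNF827 and ZNF217, the 3 that were higher had a high value in DMSO replicate 1. ZNF462, a heterochromatin-linked protein with 33 fingers, had 1148, 696 and 774 normalized counts in DMSO and 1267, 1344 and 1222 in BRL-50481 (log2 fold change 0.58, adjusted p = 0.00255), with 0.44 to 0.80 when single libraries were left out. ZNF532 had 1159, 842 and 893 in DMSO and 1347, 1397 and 1376 in BRL-50481 (log2 fold change 0.52, adjusted p = 0.000472). Both genes had lower DMSO values throughout.

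ZNF451, a SUMO ligase, had 2953, 2291 and 2681 normalized counts in DMSO and 3193, 3160 and 2995 in BRL-50481 (log2 fold change 0.25, adjusted p = 0.0152). Its call was lost without DMSO replicate 2 (0.15, adjusted p = 0.0513), BRL-50481 replicate 1 (0.23, adjusted p = 0.0695) or BRL-50481 replicate 2 (0.24, adjusted p = 0.0604). ZNF516, a CtBP-binding factor, was the lower one, with 942, 837 and 901 in DMSO and 732, 789 and 772 in BRL-50481 (log2 fold change −0.22, adjusted p = 0.0151), and missed the threshold without BRL-50481 replicate 1 (−0.19, adjusted p = 0.0692).

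The relatives of ZNF532 in the Z3 complex, which contains ZMYND8, did not pass: ZNF687 stood at −0.0070 on the log2 scale (adjusted p = 0.928) and ZNF592 at 0.10 (adjusted p = 0.238). ZNF644, a partner of G9a, had 0.12 (adjusted p = 0.165), the cohesin loader partner ZNF609 0.026, and ZNF335, a subunit of H3K4 methyltransferase complexes, −0.14 (adjusted p = 0.0834). DMSO libraries decided several of these: without DMSO replicate 1, ZNF592 (0.18, adjusted p = 0.00762), ZNF609 (0.11, adjusted p = 0.0308) and ZNF644 (0.20, adjusted p = 0.000653) passed, and without DMSO replicate 3, ZNF335 did (−0.20, adjusted p = 0.0405).

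Other roles had 1 member each. ZNF703, a luminal breast cancer oncogene of the NET family, did not pass (log2 fold change 0.054, adjusted p = 0.569). The imprint regulator ZNF445 did not pass either (0.042, adjusted p = 0.660). ZNF185, an actin-binding protein named for a LIM zinc finger, had no C2H2 finger by the pattern and was higher (0.17, adjusted p = 0.0172), with 3028, 2702 and 2867 normalized counts in DMSO and 3211, 3253 and 3184 in BRL-50481. Its adjusted p lay between 0.0511 and 0.0665 without DMSO replicate 2, DMSO replicate 3 or any single BRL-50481 library, with log2 fold changes of 0.13 to 0.18 in those 5 fits. ZNF296, below the level of 500 and listed because pathway lists of the study name it, fell from 233, 215 and 237 to 82.6, 87.6 and 91.1 (log2 fold change −1.38, adjusted p = 6.58e-07).

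KRAB zinc finger genes also moved in both directions, on chromosome 19 and elsewhere. Of the 73 members with the KRAB pattern, 19 were higher and 31 lower and the median log2 fold change was −0.074, and of the 91 coding members without it, 29 were higher and 27 lower, with a median of 0.012. Among the KRAB members, the 42 on chromosome 19 had 9 higher, 19 lower and a median of −0.14, and the 31 elsewhere had 10 higher, 12 lower and a median of 0.042. Among the KRAB members on chromosome 19, 21.4% were thus higher and 45.2% lower, against 29.2% and 39.7% of all genes with a mean of at least 500, where lower calls also outnumbered higher ones. The difference between these classes was not tested, and the pattern misses some known KRAB proteins.

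**Figure D3:**
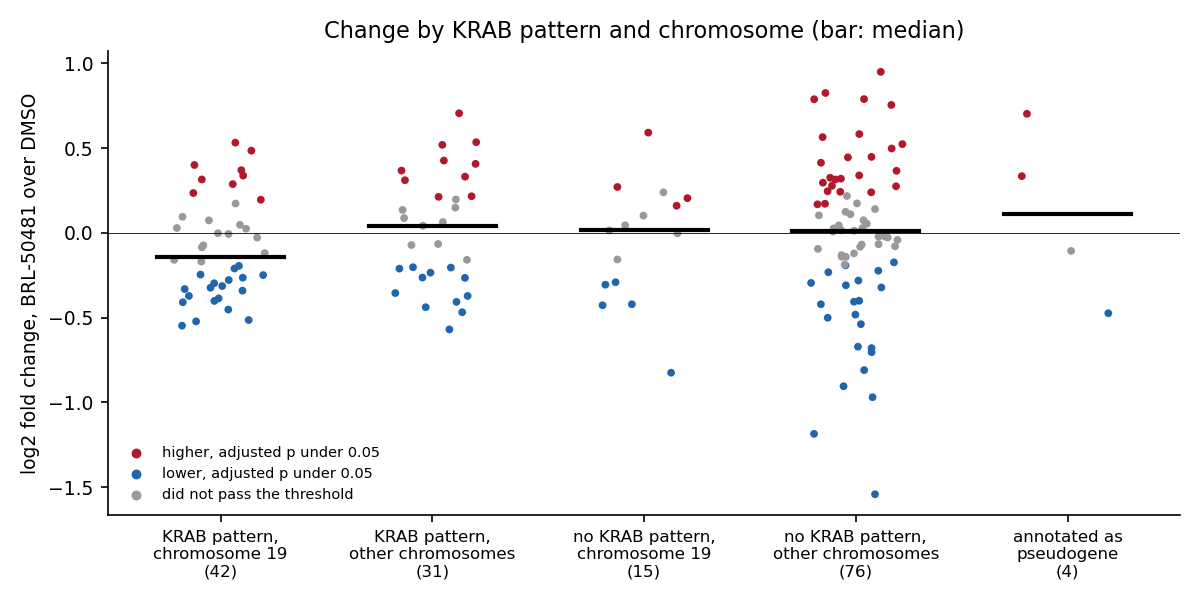
Log2 fold change (BRL-50481 over DMSO, y axis) of each of the 168 ZNF genes by KRAB pattern and chromosome (x axis, number of genes in parentheses), with a bar at the median of a class and colours for genes that were higher, lower or did not pass. The median of the KRAB genes on chromosome 19 lies at −0.14 and those of the other coding classes between 0.0099 and 0.042. Genes with the pattern run from −0.57 to 0.71, and coding genes without it from −1.54 to 0.95.

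The number of fingers had almost no rank correlation with the signed change, whereas the size of the change was larger in members with few fingers. The 25 members with 0 to 3 fingers had 10 higher and 9 lower (40.0% and 36.0%). The 57 with 4 to 9 had 16 and 21 (28.1% and 36.8%). The 82 with 10 or more had 22 and 28 (26.8% and 34.1%). Among all genes with a mean of at least 500, 29.2% were higher and 39.7% lower. The median absolute log2 fold change of these finger classes was 0.37, 0.29 and 0.24 in turn, against 0.27 among all genes at that level. The difference between the classes was not tested. Spearman's rho between the number of fingers and the log2 fold change was −0.022 over 164 members that share the same 6 libraries. The 8 members with the SCAN pattern had 3 higher and 2 lower. Of the 45 members that share exon sequence with another gene, 17 were higher and 17 lower (37.8% each). ZNF410, ZNF638, ZNF445, ZNF511, ZNF512, ZNF702P and ZNF788 are among these 45 as well.

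Members with long transcripts were more often higher and those with short ones more often lower, and genes in general at this level showed the same. Of the 56 members with the shortest transcripts (at most 3539 bases), 14 were higher and 25 lower and the median log2 fold change was −0.14. Of the 56 longest (over 5446 bases), 24 were higher and 13 lower, with a median of 0.12. Genes of the same lengths with a mean of at least 500 had medians of −0.16 and 0.10, and their shares of higher and lower calls were 20.5% and 50.3% among the short ones and 43.1% and 23.7% among the long ones. Spearman's rho between length and log2 fold change was 0.280 over the 168 members and 0.296 over 8629 genes at that level. The part of length in these changes was not tested beyond fitting and removing, library by library, the dependence on length and GC content, which left rho at 0.107 among the members.

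After that correction, which left 41 members higher and 84 lower, their median was −0.13. Of the 109 members called, 99 were called the same way with the correction (40 higher and 59 lower) and 0 the opposite way. ZNF106 and ZNF335, which had not passed, were then lower (log2 fold change −0.29 and −0.16), and ZNF185 was not called (0.088, adjusted p = 0.0583). The correction turned the sign of ZNF445 (−0.27), ZNF609 (−0.12) and ZNF148 (−0.11).

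**Figure D4:**
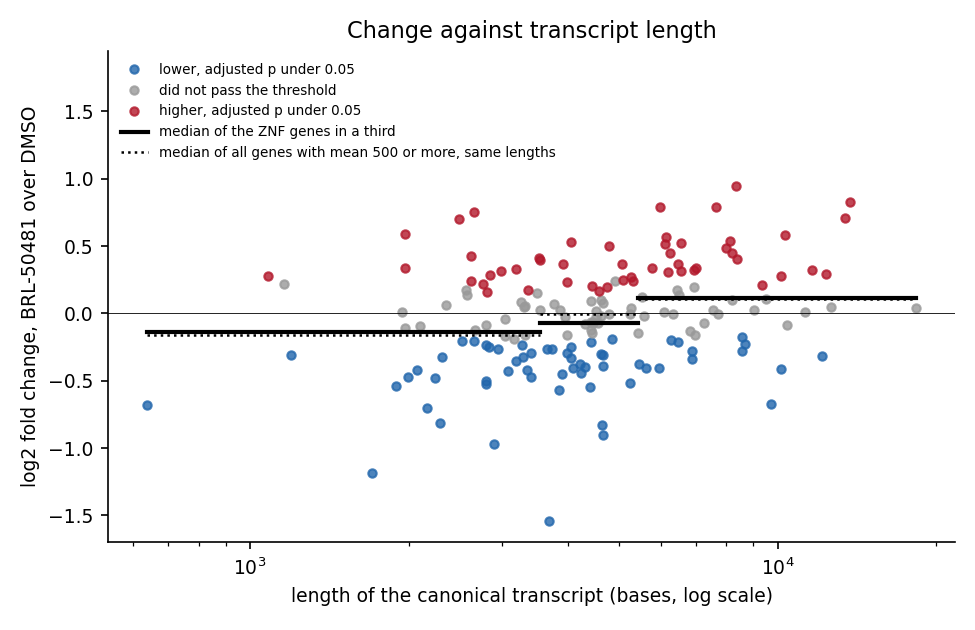
Log2 fold change (BRL-50481 over DMSO, y axis) against the length of the canonical transcript (bases, log scale, x axis) for the 168 ZNF genes, with solid lines at the medians of the 56 shortest, the 56 middle and the 56 longest and dotted lines at the medians of all genes of the same lengths with a mean of at least 500. The solid line steps from −0.14 over −0.068 to 0.12 and the dotted line from −0.16 over −0.0023 to 0.10.

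Corepressors that C2H2 proteins recruit moved in both directions. Of 33 such genes, 16 were lower (48.5%), 8 higher (24.2%) and 9 did not pass, against 39.7% lower and 29.2% higher among genes with a mean of at least 500, with a median log2 fold change of −0.12. UHRF1, which guides DNA methylation maintenance, fell most, from 1555, 1488 and 1620 to 562, 609 and 586 normalized counts (log2 fold change −1.41, adjusted p = 4.03e-09). The maintenance methyltransferase DNMT1 fell from 9817, 9224 and 9094 to 6477, 6611 and 6489 (log2 fold change −0.52, adjusted p = 8.82e-07). The groups did not overlap in either gene.

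TRIM28, the direct partner of the KRAB box, fell from 7773, 9006 and 8761 to 5766, 6317 and 6065 normalized counts (log2 fold change −0.49, adjusted p = 1.31e-05). SETDB1 was higher, with 1264, 1127 and 1173 in DMSO and 1333, 1336 and 1407 in BRL-50481 (log2 fold change 0.19, adjusted p = 0.0181). The SETDB1 call was lost without DMSO replicate 2 (0.16, adjusted p = 0.0586), DMSO replicate 3 (0.19, adjusted p = 0.0601) or BRL-50481 replicate 3 (0.17, adjusted p = 0.0908), and with the correction for length and GC content (0.11, adjusted p = 0.0516). The HP1 genes were split, with CBX1 lower (−0.49), CBX5 higher (0.49) and CBX3 at −0.055 (adjusted p = 0.332).

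Of the 11 NuRD genes in the list, 7 were lower, 1 was higher and 3 did not pass. Among genes with a mean of at least 500, 39.7% were lower and 29.2% higher, and the difference was not tested. Those lower were RBBP4 (−0.49), GATAD2A (−0.47), HDAC1 (−0.40), HDAC2 (−0.39), GATAD2B (−0.33), MTA2 (−0.25) and CHD3 (−0.16). The helicase gene CHD4 was higher (0.19, adjusted p = 0.0133), and MTA1, MBD3 and RBBP7 did not pass. FAM208A, the older symbol of the HUSH subunit TASOR, rose most of the called cofactors, from 2503, 1958 and 2029 to 3530, 3509 and 3639 normalized counts (log2 fold change 0.73, adjusted p = 4.51e-06). ZMYND8, a chromatin reader, rose from 4281, 4056 and 4028 to 6555, 6415 and 6335 (log2 fold change 0.64, adjusted p = 1.65e-07). In both, the lowest BRL-50481 value was above the highest DMSO value.

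**Figure D5:**
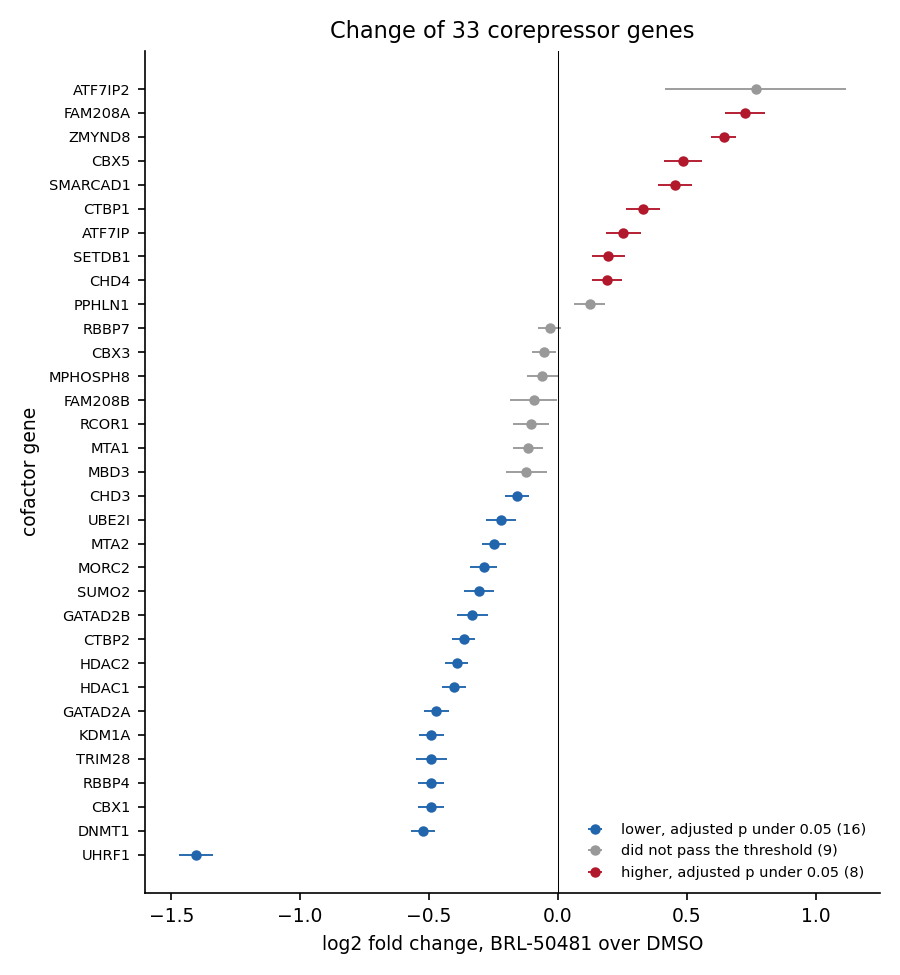
Log2 fold change (BRL-50481 over DMSO, x axis) of 33 corepressor genes (y axis) with bars for 1 standard error from limma and colours for genes that were higher, lower or did not pass an adjusted p under 0.05. UHRF1 lies at −1.41, far below the other 15 lower genes, and FAM208A and ZMYND8 lead the 8 higher genes at 0.73 and 0.64; ATF7IP2, at few counts, did not pass.

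Relatives with other names showed a like mixture. Of 80 tested genes of the ZBTB, ZSCAN, ZKSCAN and ZFP families, 21 were higher (26.2%) and 23 lower (28.8%), near the 28.9% and 29.8% of all genes tested, and the median log2 fold change was −0.054. The ZBTB genes, whose BTB domain binds corepressors, had 6 higher and 15 lower of 39, the ZSCAN genes 6 and 4 of 16, the ZKSCAN genes 2 and 0 of 7, and the ZFP genes 7 and 4 of 18. With the correction for length and GC content, 17 of the 80 were higher and 38 lower. Of all genes so corrected, 28.4% were higher and 37.2% lower.

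The boundary at a mean of 500 split genes with like values. Just inside lay ZNF184 (mean 503, log2 fold change −0.16, adjusted p = 0.126) and ZNF567 (mean 505, −0.52, adjusted p = 0.000185). Just outside lay ZNF224 (mean 497, 0.084, adjusted p = 0.399) and ZNF555 (mean 491, −0.13, adjusted p = 0.281).

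Promoter windows of RefSeq (GRCh38.p14), from 250 bases before to 50 after an annotated start, matched 139 of the 168 members with 185 windows. They were searched on both strands for TGACGTCA, the cAMP response element that the PDE7A-regulated factor CREB binds and which reads the same on both strands, and for the E2F-like letters TTTGGCGC and TTTCGCGC. TGACGTCA stood in 9 windows (4.86%) of 9 members, against 1.85% of all 35116 windows and 2.62% of the 15934 windows of tested genes. Of these 9 genes, ZNF143, ZNF593 and ZNF330 (log2 fold change −0.54, adjusted p = 2.70e-06) were lower, ZNF511 (0.27, adjusted p = 0.00877) was higher, and ZNF121, ZNF266, ZNF335, ZNF561 and ZNF562 did not pass. TTTGGCGC stood in windows of ZNF131 (−0.32) and ZNF486 (−0.45), both lower, in 1.62% of member windows against 0.954% for tested genes. TTTCGCGC stood in windows of ZNF367, which was lower, and ZNF260 (0.27), which was higher, in 1.08% against 0.697%. The genes other than ZNF143, ZNF593, ZNF335 and ZNF367 are named for these matches, and a match is a run of letters, with no binding measured.

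The windows of 3 of the members that fell most are printed 5′ to 3′ on the strand of the gene with the matched letters in capitals. That of ZNF143 is chr11:9460762-9461061 on the plus strand, with the match beginning 164 bases before the start. For ZNF593, chr1:26169658-26169957 on the plus strand, the match begins 62 bases before it. For ZNF367, chr9:96418321-96418620 on the minus strand, the match begins 35 bases before it and reads as the reverse complement GCGCGAAA.
ZNF143: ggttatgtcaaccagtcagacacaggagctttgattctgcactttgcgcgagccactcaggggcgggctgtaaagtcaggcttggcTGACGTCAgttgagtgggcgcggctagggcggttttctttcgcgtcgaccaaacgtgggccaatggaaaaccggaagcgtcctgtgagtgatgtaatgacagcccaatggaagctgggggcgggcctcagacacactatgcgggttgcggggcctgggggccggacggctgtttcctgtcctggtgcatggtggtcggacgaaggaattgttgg
ZNF593: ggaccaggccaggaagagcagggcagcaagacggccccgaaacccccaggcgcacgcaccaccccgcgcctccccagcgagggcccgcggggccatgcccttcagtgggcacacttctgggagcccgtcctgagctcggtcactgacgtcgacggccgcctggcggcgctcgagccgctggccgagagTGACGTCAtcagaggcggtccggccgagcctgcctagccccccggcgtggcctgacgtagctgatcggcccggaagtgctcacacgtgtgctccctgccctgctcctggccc
ZNF367: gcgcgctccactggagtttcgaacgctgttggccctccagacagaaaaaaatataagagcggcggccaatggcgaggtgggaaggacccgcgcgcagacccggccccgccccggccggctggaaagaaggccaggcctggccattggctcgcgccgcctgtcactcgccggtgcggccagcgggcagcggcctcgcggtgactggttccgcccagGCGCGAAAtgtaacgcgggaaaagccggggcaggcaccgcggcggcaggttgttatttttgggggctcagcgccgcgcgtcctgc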

How the data were processed

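RNA sequencing of 6 MDA-MB-231 libraries, 3 treated with DMSO and 3 with BRL-50481, was analysed from 1 table, with groups and replicate numbers taken from the labels. According to the Methods, reads were aligned by the authors to hg38 with STAR 2.7.1a, counted per gene with htseq-count on the reverse strand of the UCSC annotation, and normalized with DESeq2 1.28. The deposited signal is a gene count divided by a size factor of the library. The deposited log2 fold changes, their standard errors, the deposited mean signal and the p-values are the authors' own comparison and were not used, nor was the deposited score, their Wald statistic. Labels give oligo-dT selection and the series design ribosomal depletion.

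Genes that reached a value of 4 in at least 3 libraries, the filter of the Methods, were kept (15246 of 15651, all 168 members among them). Log2 of the normalized count plus 1 was compared with limma 3.58.1 in R 4.3.3 (lmFit, eBayes with a trend), and p-values were adjusted by Benjamini-Hochberg over all genes tested. Each value was a whole number of reads times a factor of its library, so reads were recovered (30750573 to 33446984 per library) for edgeR 4.0.16 and DESeq2 1.42.0 as alternatives. Alternatives were also a pseudocount of 0.5 or 4, no filter, a mean of at least 20, quantile normalization, median centring, no trend, a replicate block, the removal of each library in turn, and a loess correction (span 0.5) for transcript length and GC content.

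Length, GC content, position, fingers and the KRAB and SCAN patterns came from canonical transcripts of GENCODE 44 on hg38 and their translated coding sequence, in place of a RefSeq protein table. Of all genes, 14216 matched by symbol and 889 by an older RefSeq symbol (96.5%). The procedures were checked on simulated counts.

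The members and lists were chosen with earlier results of these data known. Named genes are the 8 largest called changes in each direction without overlap, the 5 members with the highest mean, the 2 genes on either side of the cutoff, the members of the role lists, TRIM28, SETDB1, DNMT1, UHRF1 and the 3 cofactors with the largest called changes (UHRF1 among them), and ZNF296. Others carry a remark or are counted in a list.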

Additional observations from a re-analysis of the deposited data

How the results depend on the processing

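Of the 109 members called, 109 were called the same way by edgeR and 106 by DESeq2, and 85 (37 higher and 48 lower) were called in all 6 comparisons that left out 1 library, and 0 of the 109 changed sign in them. Leaving out single libraries gave 40 to 60 members higher and 51 to 60 lower, with a median of -0.048 to 0.015. It gave 16 to 22 KRAB members higher and 25 to 31 lower, and 51 to 77 higher and 55 to 69 lower among the ZNF genes below 500. An absolute log2 fold change over 1 left 0 members higher and 2 lower. Quantile normalization gave 55 members higher and 54 lower with a median of 0.0222, and 46 of the ZNF genes below 500 higher against 70. No shares over all genes are given for these alternatives, so the counts do not show whether genes in general moved likewise.

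The correction for length and GC content gave 41 members higher and 84 lower, and 39 and 84 with the replicate block added, and both moved the median to -0.128. With it, the count of lower members without the KRAB pattern went from 27 to 42 (41 with the block), and that of lower genes of the other C2H2 families from 23 to 38 (37 with the block). The share of lower genes among all genes went from 29.8% to 37.2%. ZNF445 (-0.27) and ZNF609 (-0.12) turned negative with the correction and with the correction plus block, and ZNF148 (-0.11, adjusted p = 0.0424) was then past the threshold, but not with the block added. Limma without a trend lost the calls of ZNF185 (adjusted p = 0.0542), ZNF281, ZNF451 (0.0927) and ZNF598 (0.110), and quantile normalization added ZNF148 (0.0373) and ZNF644 (0.0363). The cause of these moves was not tested.

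The replicate number as a block gave 51 members higher and 61 lower against 50 and 59. Correlations of the deviations of same-numbered libraries were 0.121, 0.104 and 0.0514. Those of the other pairs ran from -0.159 to 0.0607, the highest for BRL-50481 replicate 3 with DMSO replicate 2. Whether same-numbered libraries were paired was not tested further, and the main comparison used no pairing. DMSO libraries varied more (SD of log2 deviations 0.0964 to 0.141) than BRL-50481 libraries (0.0791 to 0.0832), and 3 libraries a group limit the small changes.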
